A study of Homo sapiens with 8 samples.

Results

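The 9 genes described here, PER1, PER2, PER3, CRY1, CRY2, NR1D1, NR1D2, DBP and TEF, are clock genes driven through E-boxes. The 9 were examined for HIF-1β binding among 20163 protein-coding genes. They were taken as a list of names, and a peak was assigned to a gene when it overlapped the gene body extended by 25 kb on each side on GRCh37 (hg19). HIF-1β ChIP-seq had been performed with the Novus NB100-110 antibody in PC-3 prostate, T47D breast, A549 lung and HCT-116 colorectal cancer cells, all of them held at 0.5% oxygen for 16 h. Replicates 1 and 2 were analysed for PC-3 and T47D, and replicates 2 and 3 for A549 and HCT-116, which gave 8 libraries. No library from cells kept in normal oxygen, and no input or control antibody library, was analysed here, so binding could not be set against a background without hypoxia. The labels do not say that replicates came from separate cultures, and the identity of the lines cannot be checked from lists of peaks.

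The circadian clock is a feedback loop of transcription. CLOCK and BMAL1, a pair of bHLH-PAS proteins, bind E-boxes and activate the PER and CRY genes, whose proteins then repress that pair. The same pair activates NR1D1 and NR1D2, which encode the REV-ERB nuclear receptors that repress BMAL1, and DBP and TEF, which encode PAR bZIP activators that act at D-boxes. HIF-1β (ARNT) belongs to the same bHLH-PAS family as BMAL1 and is the DNA-binding partner of HIF-1α and HIF-2α. The core that HIF binds is ACGTG or GCGTG, so an E-box, CACGTG, contains ACGTG on both of its strands. The variant E-box CACGTT holds ACGTG on the opposite strand, where it reads AACGTG.

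The 8 peak lists held between 1042 peaks, in PC-3 replicate 1, and 3790 peaks, in HCT-116 replicate 2, with 18645 peaks in all. Replicates of a line differed in length, with 1042 and 2891 peaks in PC-3, 3061 and 2910 in T47D, 1768 and 1270 in A549, and 3790 and 1913 in HCT-116. Each peak carries a score without a stated unit, whose scale is not comparable between libraries, so a peak is described by the percentage of peaks in its own library that scored higher. A low percentage therefore marks a strong peak, and absence of a peak means only that nothing passed the limit of that list, since the lists hold no reads and the depth is unknown. Where the peaks of a line's replicates shared at least 1 bp, the merged interval is called a site of that line. Distances are counted along the direction of transcription from the 5′ end of the gene record, with negative values upstream.

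HIF-1β peaks of at least 1 library were found within 25 kb of 6 of the 9 genes, PER1, PER2, CRY2, NR1D1, NR1D2 and DBP, where 43.5% of all protein-coding genes had one. PER3, CRY1 and TEF had none in any of the 8 libraries. The 36 peaks fell into 12 regions, of which 7 lay within 2 kb of an annotated start of the gene itself and 5 lay elsewhere in the window, 3 of them across the start of a neighbouring gene. HCT-116 contributed 18 of the peaks, T47D 12, PC-3 4 and A549 2. Only 8 of the 12 regions were a site in at least 1 line, and 14 of the 36 peaks had no overlapping peak in the other replicate. The peaks were of middling or low rank. Those at own starts had between 24.6% and 93.5% of their library scoring higher, with a median of 62.8%, and the other peaks between 20.1% and 97.3%, with a median of 50.4%.

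**Figure D1:**
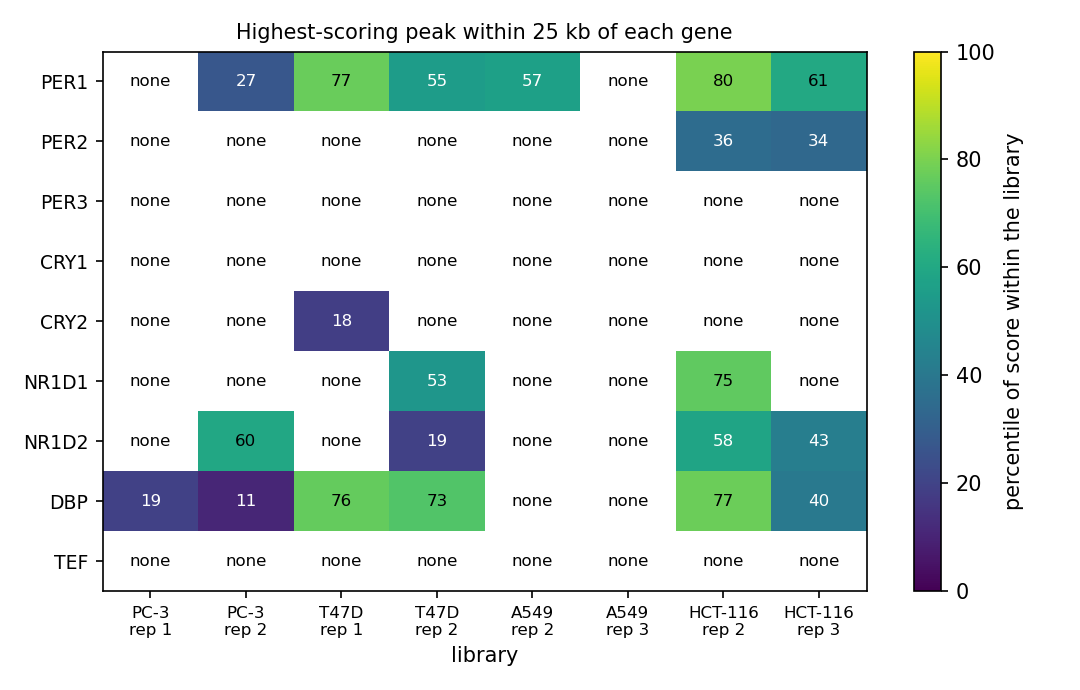
Score percentile (colour scale and printed number, 0 to 100, where 100 is the top of the library) of the highest-scoring peak within 25 kb of each gene in each of the 8 libraries. White cells marked none had no peak. PER3, CRY1 and TEF are empty throughout, A549 has a peak only at PER1 in replicate 2, and DBP and PER1 are each filled in 6 libraries.

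The sequences that carry the E-boxes under the peaks are printed here because they show which copies of the motif lay at bound starts. They are from GRCh37 on the strand of the gene, 5′ to 3′, in lower case, with capitals for the E-boxes of each stretch and, at CRY2, for the variant E-box. A variant E-box that also lies in the stretch upstream of NR1D1 is left in lower case. Further variant E-boxes under peaks at the starts of PER2, NR1D1 and DBP are not printed. The one at PER2 lay 21 bp downstream of the PER2 start at 239197467. The first printed stretch spans chr17:8059827-8060076 just upstream of the longest PER1 transcripts and lay under 3 peaks. The second, chr2:239198070-239198135, lies 636 bp upstream of the nearest annotated PER2 start. The next pair, chr17:38255366-38255446 and chr17:38255662-38255727, lies in intron 1 of NR1D1, and a further stretch, chr17:38257271-38257336, lies 462 bp upstream of the NR1D1 start. The stretch of NR1D2, chr3:23987318-23987542 in intron 1, holds 3 E-boxes within 225 bp and lay under peaks of 4 libraries. Those of DBP, chr19:49137894-49137988 and chr19:49137806-49137835, lie in intron 2 of the canonical DBP transcript, immediately before shorter DBP transcripts, and each lay under peaks of 5 libraries. The last, chr11:45868808-45868873, is the variant E-box at CRY2, the only 1 of the 7 own-start regions without CACGTG. NR1D2 and CRY2 are on the plus strand and the others on the minus strand.
PER1 start: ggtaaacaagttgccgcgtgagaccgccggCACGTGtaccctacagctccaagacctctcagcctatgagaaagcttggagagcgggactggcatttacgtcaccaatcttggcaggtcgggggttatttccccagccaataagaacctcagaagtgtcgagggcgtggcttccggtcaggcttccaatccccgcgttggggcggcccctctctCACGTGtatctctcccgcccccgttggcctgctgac
PER2 start: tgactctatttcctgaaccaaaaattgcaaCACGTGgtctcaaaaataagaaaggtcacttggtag
NR1D1 intron, distal: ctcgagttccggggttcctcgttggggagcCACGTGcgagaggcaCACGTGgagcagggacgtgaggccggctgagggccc
NR1D1 intron, proximal: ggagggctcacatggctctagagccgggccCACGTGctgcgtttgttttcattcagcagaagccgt
NR1D1 upstream: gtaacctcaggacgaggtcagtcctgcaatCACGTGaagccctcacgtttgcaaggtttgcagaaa
NR1D2 intron: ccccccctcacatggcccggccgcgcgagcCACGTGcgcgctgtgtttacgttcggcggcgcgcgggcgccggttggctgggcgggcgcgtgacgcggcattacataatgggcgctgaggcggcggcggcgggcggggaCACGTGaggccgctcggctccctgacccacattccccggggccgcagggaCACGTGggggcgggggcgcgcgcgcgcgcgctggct
DBP upstream copy: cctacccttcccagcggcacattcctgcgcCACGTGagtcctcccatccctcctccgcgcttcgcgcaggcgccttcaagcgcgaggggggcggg
DBP downstream copy: agcaggcgtcagCACGTGactcggccctga
CRY2 start: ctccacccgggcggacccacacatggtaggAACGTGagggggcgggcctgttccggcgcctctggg

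Beside these, E-boxes at starts that had no peak are shown for contrast. They are the E-box 140 bp upstream of an internal PER1 start at chr17:8055860-8055925 (minus strand), and those at both RefSeq starts of TEF, at chr22:41763234-41763299 and chr22:41777723-41777788 (plus strand).
PER1 internal start: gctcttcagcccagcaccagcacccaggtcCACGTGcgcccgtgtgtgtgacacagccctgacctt
TEF first start: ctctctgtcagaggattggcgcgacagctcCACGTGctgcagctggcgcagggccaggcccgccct
TEF second start: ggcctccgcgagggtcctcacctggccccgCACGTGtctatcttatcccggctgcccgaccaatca

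PER1, a period repressor, lies on chromosome 17 at 8043790-8059824 on the minus strand, in a gene-dense stretch in which ALOXE3, HES7, TMEM107, VAMP2 and ENSG00000263620 also start within the window. It had the most peaks of the 9 genes, in 6 libraries and 4 regions, and was bound in both replicates of T47D and of HCT-116. The region at its own start, at 8058993-8060713, was a site of T47D alone. It ranked with 33.0% of peaks scoring higher in T47D replicate 1 and with 93.5% in T47D replicate 2, so the replicates shared the position but not the rank. In HCT-116 it was found in replicate 2, with 67.4% scoring higher, and not in replicate 3. No PC-3 or A549 library had a peak there. The region held 2 E-boxes, 36 and 220 bp upstream of the gene record, and the T47D replicate 2 and HCT-116 replicate 2 peaks were centred 1 bp and 7 bp from the nearer one. RefSeq places the start of PER1 at 8055722, 4102 bp downstream, with an E-box 173 bp before it, and no library had a peak there.

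The strongest PER1 peaks of T47D lay not at the start but 17309 bp downstream of it, at 8041693-8043336, past the 3′ end of the gene and 6006 bp from the nearest annotated PER1 start. T47D replicates 1 and 2 had 22.8% and 44.8% of peaks scoring higher there, and HCT-116 replicates 2 and 3 had 56.1% and 80.9%. This was a site of both lines. Of the 5 regions away from own starts, it was the only one whose nearest protein-coding start was that of the member. Starts of genes that do not encode protein were not searched, so one of them may lie nearer. It contained no E-box, but 3 copies of GCGTG and 1 of ACGTG. A stretch at chr17:8042252-8042357 (minus strand), with the GCGTG copies of both strands in capitals, shows this other form of the HIF core.
PER1 downstream site: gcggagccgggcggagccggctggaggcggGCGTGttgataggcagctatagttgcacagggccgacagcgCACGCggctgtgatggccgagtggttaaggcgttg

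The other PER1 regions lay at neighbours. At the ALOXE3 start, at 8020903-8024612 and 37066 bp downstream of the PER1 start, HCT-116 replicates 2 and 3 had 20.1% and 39.5% scoring higher, the strongest PER1 ranks of both libraries. A549 replicate 2 had 43.2% and T47D replicate 1 had 91.9%, and no interval was common to all 4 peaks. In exon 5 of TMEM107, at 8076352-8077695 and 17200 bp upstream of PER1, HCT-116 replicates 2 and 3 had 32.0% and 97.0%. Single replicates of PC-3, T47D and A549 also had a peak there, with 72.7%, 64.6% and 60.5% scoring higher. This region held no E-box, and starts of genes that do not encode protein were not searched here either. The 2 A549 peaks near any of the 9 genes were those at ALOXE3 and TMEM107.

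**Figure D2:**
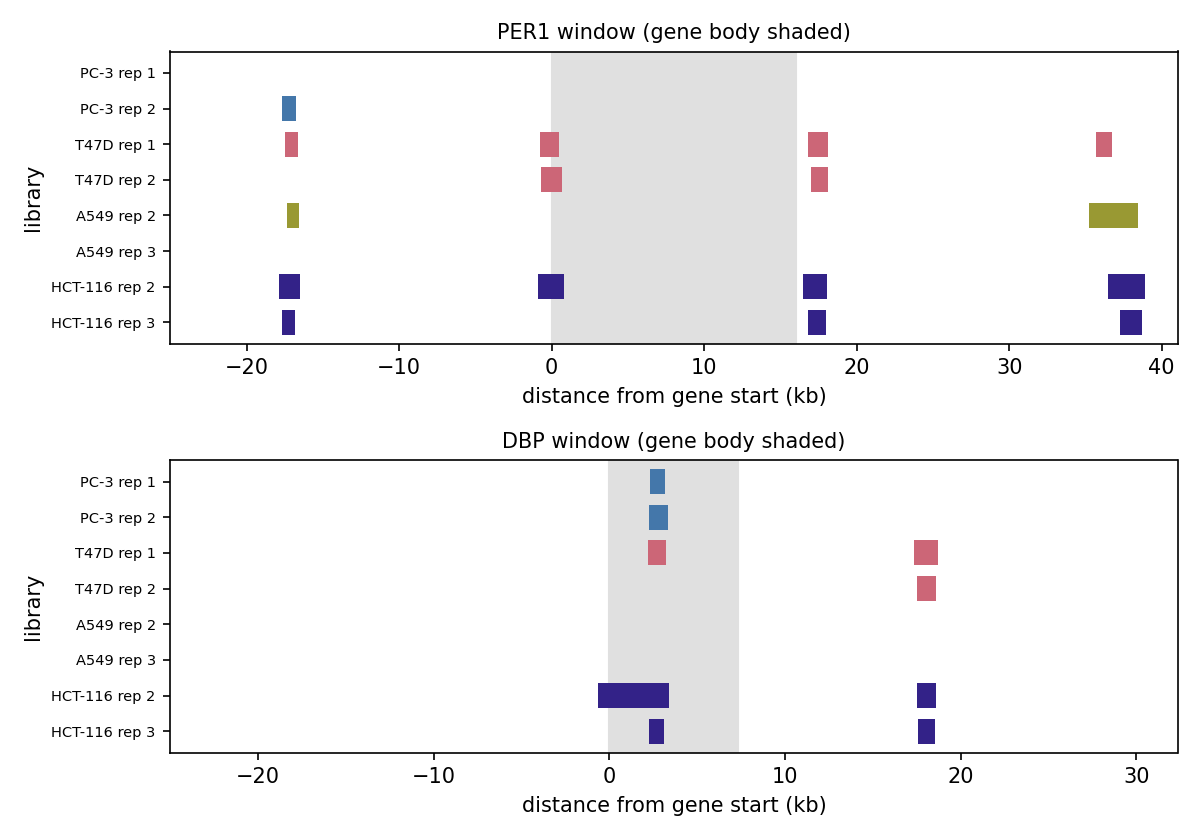
Peaks in the windows of PER1 (top) and DBP (bottom) in each library, as bars along the distance from the gene start in kb, counted along transcription, with the gene body shaded. Only 1 of the 4 PER1 regions is at the gene start, and the DBP peaks fall in the gene, 1 of them reaching past its start, and at a second position about 18.0 kb downstream.

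PER2, the second period repressor, at 239152685-239198743 on chromosome 2 (minus strand), was bound in HCT-116 alone. Its replicates 2 and 3 had peaks with 64.5% and 66.4% of their libraries scoring higher, at ranks 2444 and 1271 of lists of 3790 and 1913 peaks. Of the peaks within 10 percentile points, 20.6% in replicate 2 and 86.4% in replicate 3 had a peak in the other replicate. The other 6 libraries had none. The region, at 239196975-239198333, covered PER2 starts at 239197251 and 239197467 and held 1 E-box, 1 variant E-box and both forms of the D-box searched, TTATGTAA and TTACGTAA. The E-box lay 477 and 275 bp from the peak centres. Over whole sites of HCT-116, of a median 1406 bp, TTATGTAA was in 2.45% and TTACGTAA in 0.911%.

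Of the cryptochromes, which repress CLOCK and BMAL1 together with the PER proteins, CRY2 (chromosome 11, 45868669-45904799, plus strand) had 1 peak and CRY1 (chromosome 12, 107385142-107487327, minus strand) none. The CRY2 peak, at 45868227-45869668, was in T47D replicate 1 only, with 81.5% scoring higher. Of the 614 peaks of that library within 10 percentile points of it, 37.8% had a peak in replicate 2. The region covered the CRY2 starts and held a variant E-box and 2 copies of GACGTG. CRY1 had a variant E-box 89 bp before its RefSeq start, with no peak, and PER3 (chromosome 1, 7844351-7905237, plus strand) had 2 E-boxes 421 and 367 bp upstream, with no peak.

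NR1D1, which encodes REV-ERBα, at 38249046-38256842 on chromosome 17 (minus strand), had no site in any line, although it had peaks at its start in T47D and HCT-116. At 38256237-38257879, across the start, T47D replicate 2 had a peak with 47.3% of its library scoring higher and HCT-116 replicate 2 one with 61.1%. Neither had an overlapping peak in the other replicate. Of the peaks within 10 percentile points, 77.1% in T47D replicate 2 and 23.1% in HCT-116 replicate 2 had one. The strongest peak at an own start among all 9 genes lay 1380 bp into NR1D1, at 38254841-38256083, in HCT-116 replicate 2, with 24.6% scoring higher. It held 3 E-boxes, the nearest 48 bp from its centre. It too was absent from replicate 3, whereas 83.1% of the 759 peaks of replicate 2 within 10 percentile points of it had a peak in replicate 3. A further peak of the same library, with 97.3% scoring higher, lay at the start of MSL1, 21192 bp upstream of NR1D1.

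NR1D2, which encodes REV-ERBβ, at 23986777-24022108 on chromosome 3 (plus strand), had 1 region, in intron 1 at 23987048-23988501. Both HCT-116 replicates had a peak there, with 41.5% and 57.1% scoring higher. PC-3 replicate 2 had one with 40.0% and T47D replicate 2 one with 80.6%, each without a peak in the other replicate. The region began 271 bp downstream of the annotated NR1D2 start and covered the start of NKIRAS1, which is transcribed from the same stretch, so these peaks cannot be assigned to NR1D2 rather than NKIRAS1. It held 3 E-boxes, 574, 683 and 733 bp from the gene start. RefSeq has a second NR1D2 start at 23987612, and 2 of the 3 E-boxes lie in the 250 bp before it, the first of them 155 bp away.

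DBP, at 49133287-49140636 on chromosome 19 (minus strand), was the member with sites in the most lines. Across the 5′ part of the gene and past its 5′ end, at 49137253-49141299, PC-3 replicates 1 and 2 had peaks with 80.5% and 89.2% scoring higher, both near the bottom of their lists. HCT-116 replicates 2 and 3 had 34.0% and 73.0%, and T47D had a peak in replicate 1 only, with 40.4%. All 5 peaks shared 791 bp at 49137534-49138324, which holds both E-boxes, 2680 and 2815 bp downstream of the gene record and just before shorter transcripts that start at 49137893 and 49137783. The HCT-116 replicate 2 peak, 4047 bp wide, was centred 1320 bp from the nearest E-box, and the other 4 within 53 bp. When the 5′ end of the gene record was used in place of all annotated starts, PC-3 had no site at DBP, since its peaks lie at the shorter transcripts. TEF, the other PAR bZIP gene (chromosome 22, 41763337-41795330, plus strand), had E-boxes at both RefSeq starts, with no peak.

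The second DBP region, at 49121932-49123298 and 18021 bp downstream, lay at the starts of SPHK2 and RPL18 and was a site of T47D and HCT-116. T47D replicates 1 and 2 had 23.6% and 27.1% scoring higher there, and HCT-116 replicates 2 and 3 had 22.6% and 59.6%. It was stronger in T47D than the peak at DBP itself, which only 1 T47D replicate had, and it held no E-box. The T47D site within 25 kb of DBP was this one.

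**Figure D3:**
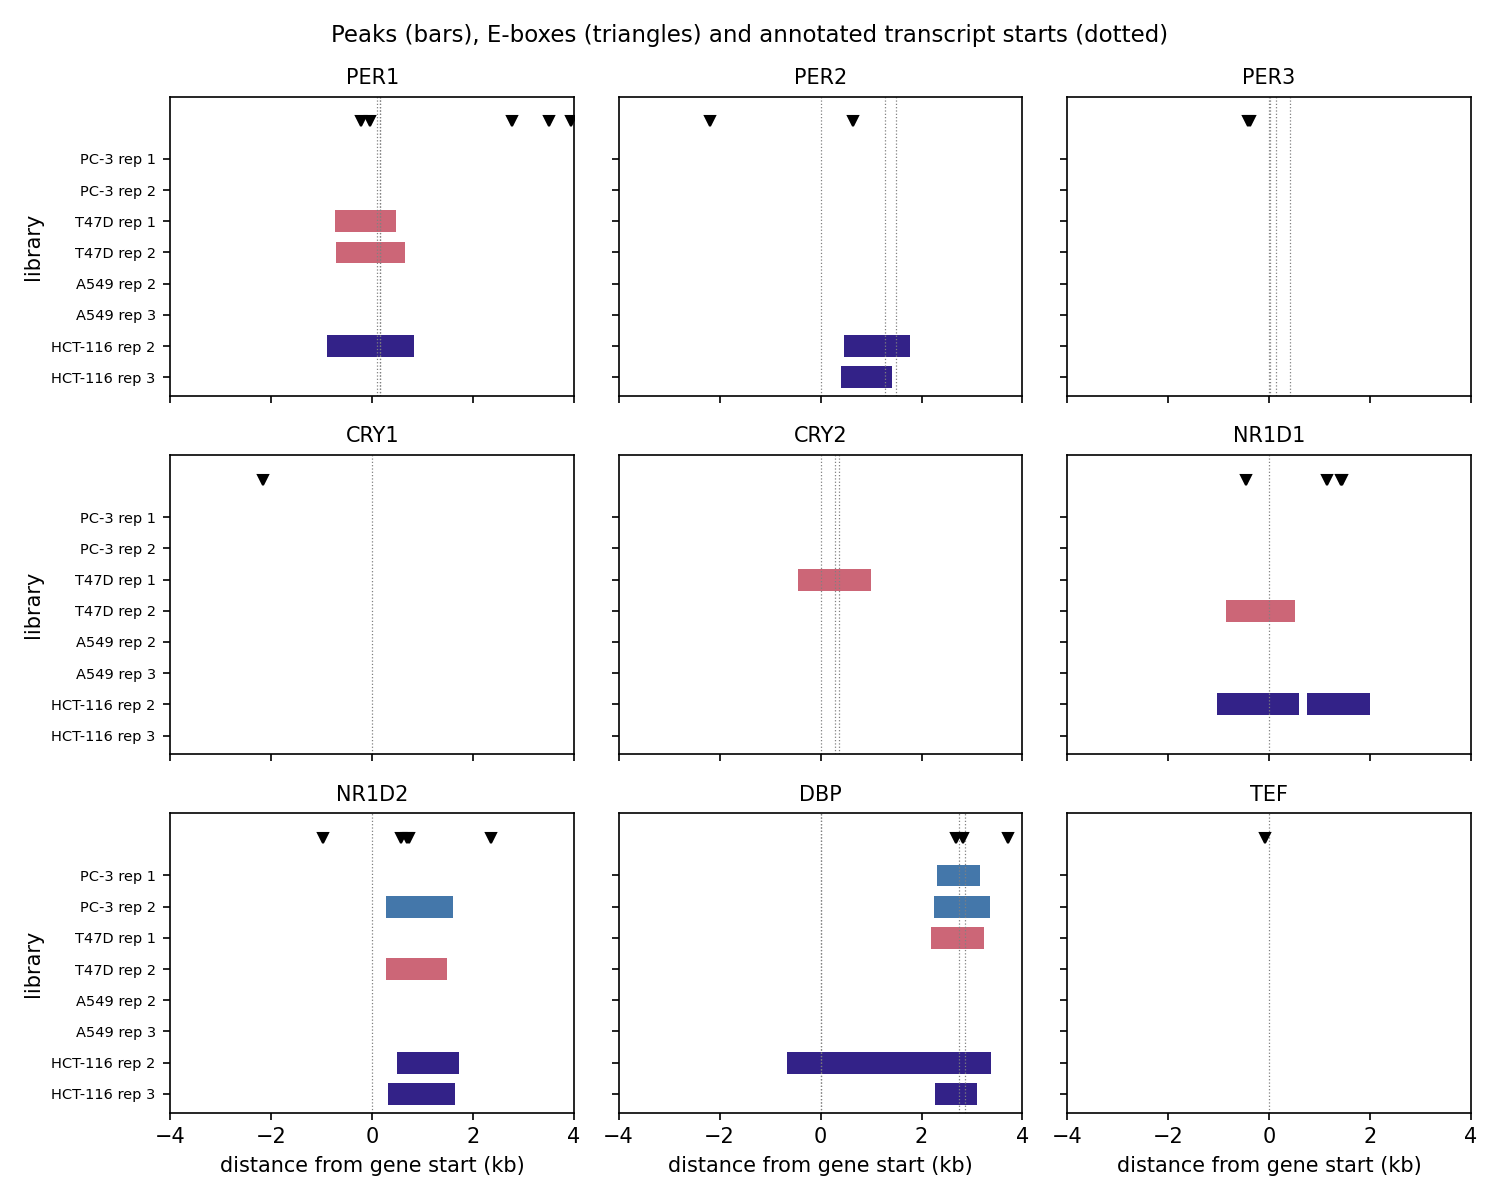
Peaks (bars, coloured by line) within 4 kb of the start of each of the 9 genes, one row for each library, with distance from the gene start in kb counted along transcription. Triangles mark E-boxes and dotted lines the annotated starts of protein-coding transcripts. Triangles at PER3, CRY1 and TEF have no bar beneath them, and all 4 at NR1D1 (a close pair is drawn as a single mark) do.

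Counted by line, few of the 9 genes had a site. Within 25 kb, PC-3 had a site at 1 gene (DBP), where 7.07% of all protein-coding genes had one, and T47D at 2 (PER1 and DBP), against 16% of all genes. A549 had a site at 0 of the 9, against 6.01%, and HCT-116 at 4 (PER1, PER2, NR1D2 and DBP), against 14.2%. Within 2 kb of an own start, PC-3 had a site at 1 gene (DBP; 2.32% of all genes), T47D at 1 (PER1; 7.29%), A549 at 0 (1.84%), and HCT-116 at 3 (PER2, NR1D2 and DBP; 6.37%). These are counts of 0 to 4, so that a single gene moves them. HCT-116 had the highest count in both, but not under every rule: with the higher-scoring 50% of each list it fell to 1 within 25 kb, where T47D kept 2, and to 0 at own starts, as in the other lines. With a peak of either replicate counted, T47D and HCT-116 both had 5 within 25 kb and 5 at own starts. The share of all genes under these other rules is not given, and the rules change it too. No test was run on the list. The windows of the 9 genes had a median of 85332 bp, against 77219 bp for all genes.

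**Figure D4:**
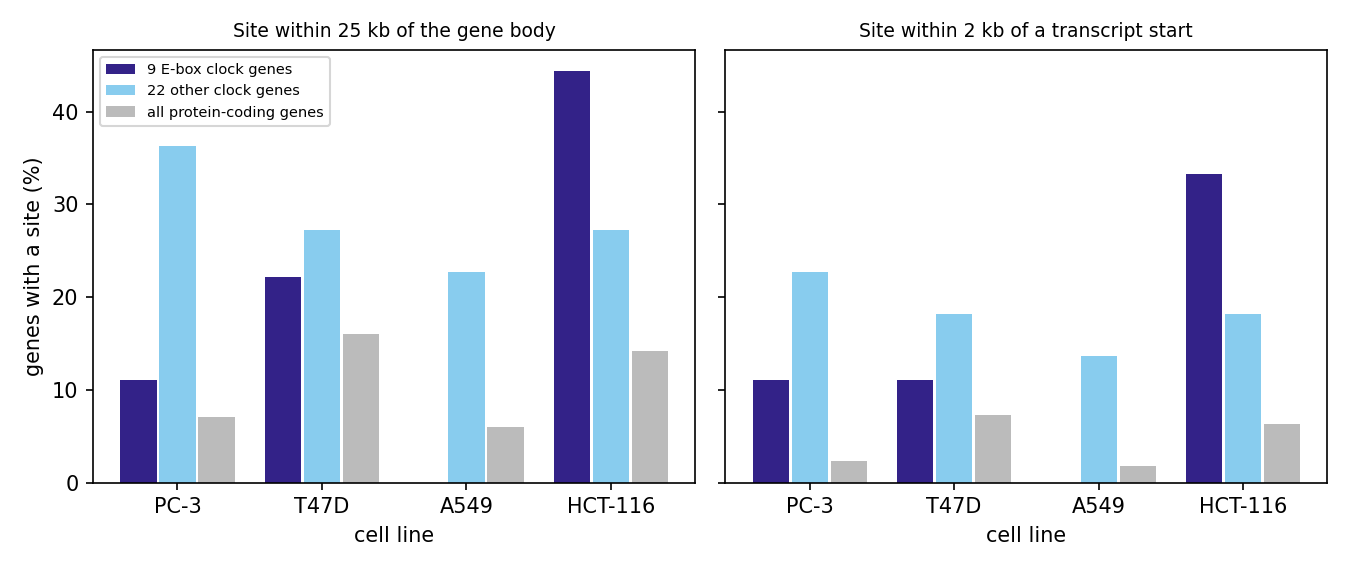
Percentage of genes with a site in each line, within 25 kb of the gene body (left) and within 2 kb of a start (right), for the 9 E-box clock genes, the 22 other clock genes and all protein-coding genes. The bars of the 9 genes stand on counts of 0 to 4, are absent in A549, and reach their highest in HCT-116.

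Whether replicates of a line resembled each other more than libraries of different lines was asked gene by gene, with the highest score percentile in each library and 0 where there was no peak. A one-sided exact permutation test that took every possible pairing of the 8 libraries was used, with Benjamini-Hochberg adjustment over the 6004 genes with a peak in at least 2 libraries. No gene was called, 0% of those tested, while 773 genes (12.9%) had an unadjusted p under 0.05. The smallest p that the pairings can give is 0.00952, which 107 genes had. An adjusted p of 0.05 at that value would take 1144 such genes, so the test could call no member here and the values below are descriptive. The highest percentile may come from any peak in the window, also one at a neighbour. For DBP the mean difference between replicates was 12.3 percentile points, against 40.4 over all pairs of libraries (p = 0.0286, adjusted p = 0.25 by the exact permutation test). The T47D and HCT-116 values of DBP came from the region at SPHK2 and RPL18, and only the PC-3 values from DBP itself. For PER2, with peaks in HCT-116 alone, these were 0.482 and 14.9 points (p = 0.143, adjusted p = 0.25 by the exact permutation test). The p-value of PER2 is the smallest that peaks in both replicates of a single line can give. PER1 had 31.4 against 37.4 points (adjusted p = 0.474 by the exact permutation test) and NR1D2 had 23.8 against 30.7 (adjusted p = 0.548 by the exact permutation test). The PER1 values came from the regions downstream and at ALOXE3 and TMEM107, and none from its own start. In NR1D1 the replicates differed by 32.0 points, more than the 28.3 of all pairs.

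E-boxes were counted under the peaks. Of the 18 peaks at own starts, 17 contained CACGTG, all but that at CRY2, whereas of the 18 other peaks 3 did. In the 8 libraries, between 20.5% and 33.4% of all peaks contained one. Of all sites within 2 kb of a transcript start, taken whole, 33.7% in A549 to 39.4% in HCT-116 did. The 9 genes were listed as driven through E-boxes, so an excess of CACGTG at their starts cannot be read as a result about binding. Peaks of the same region share their sequence, so by region the counts are 6 of 7 at own starts, with 12 copies, and 1 of 5 elsewhere, with 2 copies. Both kinds of region held ACGTG or GCGTG throughout, in 7 of 7 and 5 of 5. In the central 300 bp of sites, counted once per line, CACGTG was in 2 of the 11 sites of these genes (18.2%) and in 11% of all 5829 sites on the main chromosomes. Over whole sites it was in 6 of 11, against 30.8%. ACGTG or GCGTG was in the centre of 8 of 11 (72.7%), against 80.8%. The central CACGTG copies were those of PER1 in T47D and DBP in PC-3. In all 3 HCT-116 sites at own starts the E-box lay outside the central 300 bp. The DBP site takes in the 4047 bp peak of replicate 2, while the replicate 3 peak was centred 7 bp from an E-box.

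The reverse count started from the E-boxes. Within 4 kb of the 9 gene starts there were 23 copies of CACGTG, at 8 of the 9 genes, and 12 of them lay under a peak of at least 1 library. Copies under a peak were not counted for all protein-coding genes, so this share has no background to be judged by. All 4 at NR1D1 were covered, 3 of 5 at NR1D2, 2 of 3 at DBP, 2 of 5 at PER1 and 1 of 2 at PER2, and none at PER3, CRY1 or TEF. Among all protein-coding genes, 61.6% had at least 1 copy within 4 kb and 11.5% had 3 or more, which 4 of these 9 genes had. Since the list was chosen as genes driven through E-boxes, such copies, here and in the promoters that follow, go with that choice. RefSeq gave 13 promoters for the 9 genes, taken as 250 bp before to 50 bp after a start, annotated on GRCh38.p14 and all matched to GRCh37 by sequence. Of these, 4 held CACGTG, against 7.26% of all 35116 promoters, and 1 of the 4, the second NR1D2 promoter, overlapped a peak. CACGTT was in another 4, against 5.34%. ACGTG occurred in 21.4% and GCGTG in 36.5% of all promoters.

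Of the 22 other clock genes examined, 8 had a site within 25 kb in PC-3 (7.07% of all genes) and 6 in T47D (16%). In A549 5 had one (6.01%) and in HCT-116 6 (14.2%). A site in at least 2 lines was found for 8, a count for which the share of all genes is not given. Whether E-boxes drive any of these 22 genes was not examined. BHLHE40 (DEC1), a bHLH repressor that competes for E-boxes, had a site at its start in all 4 lines and a second one 6006 to 6831 bp away. Its top peak within 25 kb, which may be at either, had 0.226% to 2.88% of peaks scoring higher. That was a higher rank than any peak of the 9 genes. Its paralogue BHLHE41 (DEC2) had one in PC-3 and HCT-116, and CIART, a repressor of CLOCK and BMAL1, had one in PC-3 and T47D. NAMPT, the enzyme of NAD salvage and a clock output, had a site at its start in all 4 lines. Its top peak within 25 kb had 3.85% to 49.2% scoring higher. NFIL3, a repressor at D-boxes, had one in T47D, A549 and HCT-116. NPAS2, a paralogue of CLOCK, had one in PC-3 347 bp from its start, and one in A549 30527 bp away. The sites near CSNK1D, a kinase that acts on PER proteins, were strong, with 0.481% to 2.35% scoring higher for the top peak of each library, and the strongest of them in each of the 4 lines was nearest to the start of SLC16A3, a lactate transporter. The activators CLOCK, BMAL1 and BMAL2, the receptors RORA and RORB, and HLF, FBXW11 and USP2 were among those with no peak in any library.

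The genes whose pattern of percentiles over the 8 libraries was most like that of each member were taken by the sum of absolute differences, leaving out genes with overlapping windows. These percentiles are again those of the highest-scoring peak anywhere in the window. CBX2 and CBX8, which share a window, were nearest to PER1, with a sum of 42.0 percentile points, followed by RBX1 with 63.2. For PER2 these were LHPP and NKX1-2, with 0.550, and KHDRBS1, with 1.39, all with peaks in HCT-116 alone. For NR1D2 they were TRAM1, with 30.5, and CCDC89 and CREBZF, with 31.7. For DBP they were LMBR1L and TUBA1B, with 39.8, and ALG3, with 46.0. None of these is a clock gene of either list.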

How the data were processed

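The authors trimmed reads with Trim Galore 0.3.3, aligned them with BWA 0.7.5a-r405 to GRCh37 (hg19), and used SAMtools 0.1.19, Picard 1.106 and bedtools 2.17.0, per the labels. They called peaks with MACS in each library and deposited 1 list per replicate, with an interval, a name and a score for every peak. The deposited score has no header and its lowest value lies near 50 in each list. It was used only as a rank within a library, since the lists hold no reads. The study also required agreement with T-PIC, a step that could not be seen in the lists.

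Peaks of both replicates overlapping by at least 1 bp were merged into sites. Protein-coding genes and the starts of their protein-coding transcripts came from GENCODE 44 lifted to GRCh37, and promoters from RefSeq. Motifs were counted on both strands. Replicates were compared with an exact permutation test over all pairings, which was tested on simulated data. The simulated percentiles had none set to 0 for a missing peak, so the test was not checked on such values. Alternatives changed the overlap, replicates, score limit, window, start and stretch searched. Named genes were the members, the nearest starts to their peaks, other clock genes with a site in at least 2 lines, and the 3 genes most similar to each member with a site. Some of the other clock genes are counted but not reported here by name. Members and lists were chosen with earlier results of these data known. Work used Python 3.11.15, NumPy 2.4.6, SciPy 1.17.1, pandas 2.3.3, pysam 0.24.0, Matplotlib 3.10.9 and samtools 1.23.1.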

Additional observations from a re-analysis of the deposited data

How the results depend on the processing

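Counting a peak of either replicate gave sites within 25 kb at 3 of the 9 genes in PC-3 (against 1), 5 in T47D (against 2) and 1 in A549 (against 0), and within 2 kb of an own start at 2 in PC-3 (against 1), 5 in T47D (against 1) and 5 in HCT-116 (against 3). Keeping the higher-scoring 50% of each list left 0 within 25 kb in PC-3 and 1 in HCT-116 (against 4), and 0 at own starts in PC-3, T47D and HCT-116. In T47D the count within 25 kb was 1 with the gene body alone, 1 when the nearest start had to be that of the gene, and 4 with a 50 kb window, which gave 2 in A549. With the 5′ end of the gene record, PC-3 had 0 at own starts. Leaving out 1 replicate gave 1 to 3 genes within 25 kb in PC-3, 3 to 4 in T47D, 0 to 1 in A549 and 4 to 5 in HCT-116, and at own starts 1 to 2 in PC-3, 3 in T47D, 0 in A549 and 3 to 5 in HCT-116. The higher counts came without PC-3 replicate 1, without T47D replicate 1 (within 25 kb), without A549 replicate 3 and without HCT-116 replicate 3. Shares of all genes under these alternatives are not given, so the counts cannot be set against a background. CACGTG was in 6 of 11 whole sites, against 2 of 11 centres. In the test of replicates the lowest adjusted p of a member lay between 0.123 and 0.43 over the alternatives, but its p-values are too coarse for a call, so this says nothing about stability. Of the recomputed values, 24 counts moved by over 1.5 times and 66 values stayed within that or on their side of the threshold. Among the 66 is the loss of DBP at its own start in HCT-116 (from 3 genes to 2) when replicate peaks had to share 50% of both. The 66 also include the values of the replicate test, which could not cross its threshold, and A549 counts that stayed at 0. This tally is therefore no measure of stability. The lists limit all counts to peaks that passed their score limit, and 1 pair of replicates per line gives no error for a count. No paired analysis was possible because the counts by line come from no test, and the test of replicates compares libraries of a line with each other and not groups.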
